A study of Mus musculus with 12 samples.

Results

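The genes described here encode kinesins, kinesin light chains, cytoplasmic dynein and dynactin, the microtubule motors of the cell and their subunits. They were taken from the deposited count table by symbol: names beginning with Kif, Klc, Dync, Dynl or Dctn and going on with a number, or with Dynlt, Dynlrb or Dynll, and no pseudogene. This gave 51 of 15391 genes, 29 on the kinesin side and 22 on the dynein-dynactin side. The names also bring in kinesins best known from mitosis, such as Kif11, Kif22 and Kif23, and Kif1bp, a kinesin-binding protein that is no motor, so the genes are called motor genes below and not axonal transport motors. Another 15 mouse genes with such names, among them Kif17, Kif21b and Klc3, were not analysed here.

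RNA came from cultured dorsal root ganglion neurons of adult mice with the genotype RPL22HA+/+;Advillin-Cre+, which express an HA-tagged ribosomal protein where Advillin-Cre is active, mainly in sensory neurons. All mice were preconditioned by a sciatic nerve injury before culture, so no group lacks the injury, the HA allele or the Cre. The neurons received AAV-shLarp1, a virus carrying a short hairpin RNA against Larp1, or a control virus, which the labels write as AAV-Control for the immunoprecipitates and AAV-shControl for the inputs. The 4 groups are the HA immunoprecipitate (IP) with shLarp1, the IP with control virus, the input with shLarp1 and the input with control virus. The extraction text in the labels speaks of freshly collected ganglia and not of cultures.

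Kinesins walk along microtubules, most of them toward the plus ends, which point to the axon tip; kinesin-1, kinesin-2 and kinesin-3 carry organelles, vesicles and RNA granules down the axon. Cytoplasmic dynein, with dynactin as its activator, carries endosomes, autophagosomes and injury signals back to the cell body. In sensory neurons with long axons, both directions are needed for growth after injury, and mRNAs of some motors are themselves found in axons.

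Each group has 3 columns of counts, which differed by about the sampling noise: over genes with at least 30 counts, 6.98% to 7.62% had a chi-square p under 0.05, where sampling alone gives 5%. For that reason the columns were summed and each group stands for 1 sample, so that no difference has a replicate check. Column totals were 3176458 to 3177552 counts in the shLarp1 IP, 3126591 to 3128368 in the control IP, 759527 to 760140 in the shLarp1 input and 564095 to 564625 in the control input. Motor genes held 51438 counts in the shLarp1 IP, 44842 in the control IP, 3636 in the shLarp1 input and 3421 in the control input. Ratios are on the log2 scale after TMM scaling, with an exact 95% interval. This interval takes in counting error alone, since copies made by PCR are not separate molecules. Higher and lower are used as calls only where all of the interval lies beyond 1.5-fold (0.585 on the log2 scale). Counts are not corrected for gene length, so they are set between groups and not between genes as levels. Of the 51 motor genes, 45 passed the filter on low counts, 25 kinesin-side and 20 dynein-dynactin genes. The 6 that did not, Kif13a, Kif15, Kif18b, Kif26b, Dync2h1 and Dynlrb2, had at most 42 counts in any group.

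Larp1, the gene the hairpin targets, had 149 counts in the shLarp1 IP and 442 in the control IP (log2 -1.72, interval -2.0 to -1.45). All 12 listed sensory neuron markers were detected in every group. Their summed level was 5035 to 5101 counts per 1e+06 scaled counts (CPM) per column in the shLarp1 IP, against 4807 to 4858 in the control IP. In input it was 1101 to 1143 CPM with shLarp1, against 2003 to 2122 CPM with control virus. Uchl1, an abundant neuronal hydrolase, held most of these counts, with 935 in the shLarp1 input against 1772 in the control input. The other lists in input, with shLarp1 against control virus, were 551 to 626 against 535 to 586 CPM for Schwann cell and satellite glia markers and 463 to 563 against 359 to 441 CPM for fibroblasts. They were 61.0 to 72.2 against 96.8 to 129 CPM for macrophages and 71.5 to 98.3 against 139 to 148 CPM for endothelial and mural cells. Fn1 held most of the fibroblast counts, with 613 of 715 in the shLarp1 input and 399 of 493 in the control input. Other fibroblast genes did not share a direction. In the same order, Col1a2 had 29 against 20 counts and Postn 28 against 21, whereas Col1a1 had 28 against 31 and Col3a1 9 against 15. Pdgfra, Kdr and Pecam1 were at 0 in the shLarp1 input and Lum in the control input; Adgre1 and Ptprc were not analysed here. In such bulk RNA, fewer cells of a type and less RNA per cell cannot be told apart. The part of this gap in the input values below was not tested.

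Relative to input, the heavy chains of kinesin-1, the light chains Klc1 and Klc2 and the vesicle carriers Kif1a and Kif1b were called higher in the IP with both viruses. So were the dynein-1 chains Dync1i1, Dync1li1 and Dync1li2, whereas of the dynein light chains Dynll2 alone was. With shLarp1, 20 of 45 motor genes were higher in the IP than in input and 5 were lower, where 25.9% and 13.1% of all 8771 genes tested were, or 39% in either direction. With control virus, 14 were higher and 5 lower, where 23% and 12.5% of all 8773 genes were, or 35.5% in either direction. The median ratio of the 25 kinesin-side genes was 1.84 with shLarp1 (1.70 with genes at 0 set to 3 counts) and 1.34 with control virus. The median of the 20 dynein-dynactin genes was 0.72 with shLarp1 and 0.71 with control virus, and that of all genes was 0.93 and 0.71 in the same order of viruses. Within the dynein-dynactin side, the 5 dynein-1 heavy, intermediate and light intermediate chains had medians of 1.90 and 1.96 in that order. The 6 dynactin subunits had 0.88 and 0.71, and the 8 dynein light chains -0.29 and -0.46. The zero point of these ratios depends on how the IP and input are scaled to each other, so they are read against the median of all genes. Under upper-quartile scaling 11 motor genes were higher and 10 lower with shLarp1, and 7 were higher and 10 lower with control virus. Kif5c, Klc1, Kif1a, Kif21a, Dync1i1 and Dync1li2 were called higher with both viruses there too. Kif1b kept the call there with shLarp1 only and Dynll2 with control virus only, while Klc2 and Dync1li1 lost it with both. Under total-count scaling 34 were higher and 3 lower with shLarp1, and 31 were higher and 1 lower with control virus. Against the median of all genes under TMM scaling, 15 kinesin-side genes lay above and 10 below with shLarp1, and 18 lay above and 7 below with control virus. Of the dynein-dynactin genes, 7 lay above and 13 below with shLarp1, and 10 lay on each side with control virus. The sensory neuron markers had medians of 2.13 with shLarp1 and 2.11 with control virus, and the Schwann cell and satellite glia markers of 0.10 and -0.02. The share that neuronal enrichment has in the values of the motor genes was not tested.

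**Figure D1:**
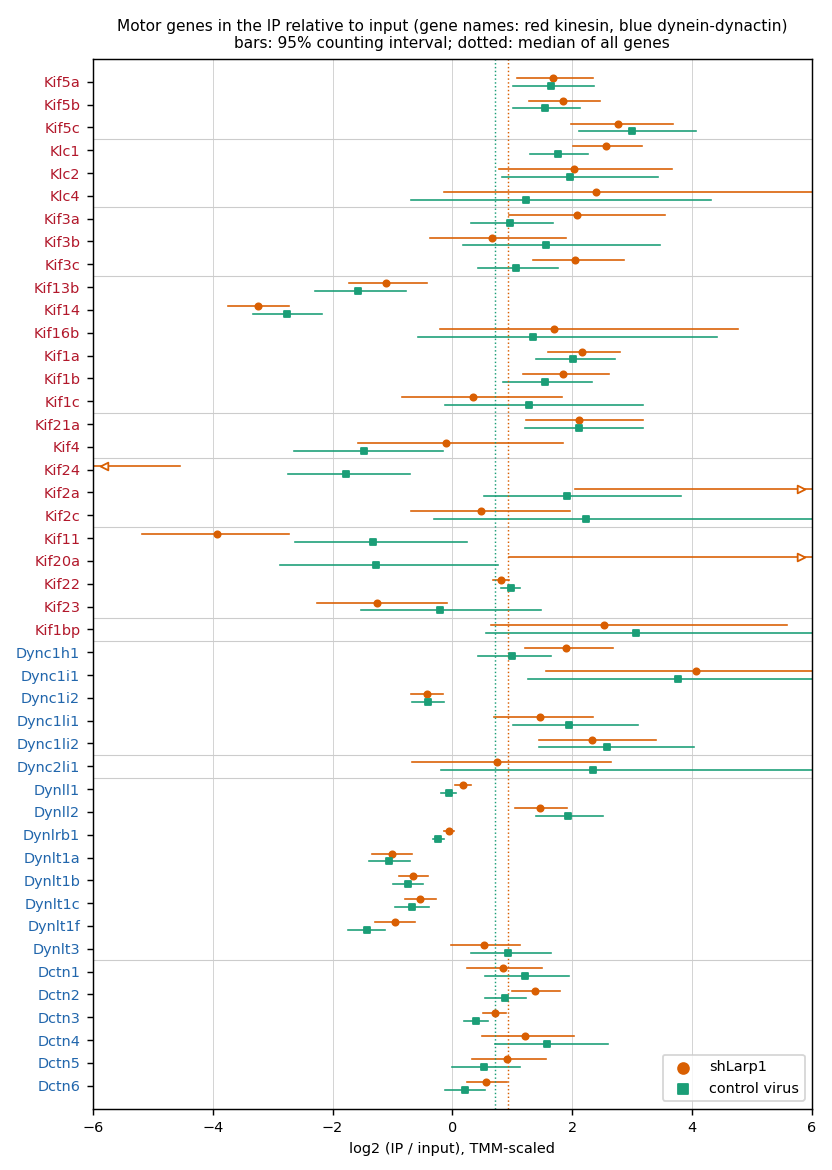
Log2 ratio of IP over input for the 45 motor genes that passed the filter, with shLarp1 (circles) and control virus (squares), ordered by role; bars are 95% counting intervals, open triangles mark a gene with 0 counts in 1 of the groups, and dotted lines are the medians of all genes. Kif5a, Kif5b and Kif5c lie right of both medians, while the Dynlt1 copies, Kif14 and Kif24 lie left of 0.

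The heavy chains of kinesin-1, the main carrier of mitochondria, vesicles and slow cargo along axons, were all called higher in the IP with both viruses under TMM scaling. Under upper-quartile scaling Kif5c kept the call with both viruses and Kif5b with shLarp1, while Kif5a lost it with both and Kif5b with control virus. Kif5c, an isoform known as neuronal, had 326, 292 and 310 counts in the 3 shLarp1 IP columns and 3, 6 and 4 in the shLarp1 input columns, a log2 ratio of 2.77 (1.99 to 3.68). With control virus it had 286, 282 and 295 IP counts and 4, 4 and 2 input counts, a ratio of 2.99 (2.11 to 4.06). Kif5a, the other neuronal isoform, had ratios of 1.68 with shLarp1 and 1.65 with control virus. Kif5b, the isoform found in most cells, had 1.84 and 1.54 in the same order of viruses. The neuronal Kif5c thus stood above the ubiquitous Kif5b in both ratios. However, its interval overlapped that of Kif5b with shLarp1 (1.28 to 2.47) and with control virus (1.01 to 2.13). The share of Kif5c in the counts of the pair, given below, separated IP from input with control virus only. The kinesin light chains, which couple kinesin-1 to cargo, included 2 called genes: Klc1 had a ratio of 2.56 (2.01 to 3.16) with shLarp1 and 1.76 (1.29 to 2.26) with control virus, and Klc2 had 2.02 and 1.97. Klc4 had 1 input count with shLarp1 and 2 with control virus, and was not called.

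Among the promoters that RefSeq gives for 38 motor genes, the full cAMP response element TGACGTCA, a site that reads the same on both strands, was found in those of Kif5c, Klc1 and Dctn3. That is 7.89% of the 38, against 2.03% of 27025 promoters of all genes, in windows of 250 bases before to 50 after the start. The stretches are shown because they bring together a heavy chain and a light chain of kinesin-1 and a dynactin subunit. The element is in capitals, in build GRCm38.p6: chr2:49619234-49619293 on the plus strand for Kif5c, chr12:111758809-111758868 on the plus strand for Klc1 and chr4:41723211-41723270 on the minus strand for Dctn3.
Kif5c: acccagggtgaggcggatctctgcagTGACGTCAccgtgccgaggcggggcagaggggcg
Klc1: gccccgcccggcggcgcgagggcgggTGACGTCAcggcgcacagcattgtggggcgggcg
Dctn3: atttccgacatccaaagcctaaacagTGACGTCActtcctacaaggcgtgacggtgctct
The AP-1 letters TGANTCA were in none of the 38 windows, against 8.97% of all promoters, and the E-box CACGTG was in 5.26% against 8.09%. The letters CCAAT were in 50% against 41.1%. The letters TTTGAA, the core of the cell cycle genes homology region, were in 10 of 23 kinesin-side windows, or 43.5%, and in 1 of 15 dynein-dynactin windows, or 6.67%, against 20.2% of all promoters. These are 5 motifs, searched on both strands and with no overlap removed, and a match in a window is not a binding site.

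Kinesin-3 motors move synaptic and dense-core vesicle precursors, and their members split. Kif1a, the main carrier of such precursors, was called higher in the IP, with 1179 IP and 25 input counts with shLarp1 (ratio 2.17, 1.60 to 2.80) and 923 IP and 21 input counts with control virus (2.02, 1.40 to 2.72). Kif1b was called higher as well under TMM scaling, with ratios of 1.85 with shLarp1 and 1.54 with control virus. Kif14, a mitotic member of the same family, was called lower, with 26, 29 and 15 counts in the shLarp1 IP columns and 22, 22 and 19 in the far smaller shLarp1 input columns. Its ratios were -3.24 (-3.75 to -2.72) with shLarp1 and -2.75 (-3.32 to -2.17) with control virus. Kif13b, a kinesin known for carrying phosphoinositide and membrane cargo, was called lower with control virus (-1.57, -2.30 to -0.78) and was not with shLarp1 (-1.10, -1.73 to -0.42). The difference between these ratios, 0.47 (-0.47 to 1.41), was not called.

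Kif21a, a kinesin-4 motor known for damping microtubule growth, was called higher with both viruses, with ratios of 2.12 with shLarp1 and 2.11 with control virus. Kif2a, a kinesin-13 that takes microtubule ends apart, had 162 IP counts and no input count with shLarp1. With the input set to 3 counts over the group and the IP count taken as measured, it was 5.15-fold higher in the IP. The lower end of its interval was a smaller difference, 2.05 on the log2 scale. With control virus it had 164 IP and 4 input counts and was not called (1.92, 0.54 to 3.81). Kif1bp, the kinesin-binding protein, had 121 IP and 2 input counts with shLarp1 and was called higher, and it had 91 and 1 with control virus and was not called. Kif22, a chromosome-arm kinesin of mitosis, held more counts than any other kinesin-side gene, 8883 in the shLarp1 IP and 481 in the shLarp1 input. It was called higher with both viruses at ratios of 0.82 (0.68 to 0.95) with shLarp1 and 0.98 (0.82 to 1.14) with control virus, close to the medians of all genes. The 8 listed markers of dividing cells summed to 70.2 to 71.7 CPM per column in the shLarp1 IP, 75.6 to 84.4 in the control IP, 366 to 433 in the shLarp1 input and 320 to 351 in the control input. Ccnb1 held most of the input counts of this list, with 427 of 556 with shLarp1 and 279 of 413 with control virus. Aurkb in the shLarp1 input and Top2a in the control input were at 0. Of the 6 markers that passed the filter, 2 were called lower in the IP than in input with shLarp1 and 0 higher. With control virus 3 were called lower and 1 higher, Ccna2, on 1 input count. The part that dividing cells have in the values of Kif14, Kif11 and Kif22 was not tested.

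On the dynein side, subunits that replace each other differed in the same RNA in some pairs. Dync1i1, the intermediate chain isoform known as neuronal, had 48, 64 and 63 counts in the shLarp1 IP columns and a single count in the 3 shLarp1 input columns, a called ratio of 4.06 (1.56 to 9.37). With control virus it had 48, 47 and 52 IP counts and again 1 input count, a called ratio of 3.76 (1.26 to 9.08). Dync1i2, the isoform of most cells, had 1006 IP and 129 input counts with shLarp1, a ratio of -0.43 (-0.69 to -0.15), and 1076 and 132 with control virus, -0.41 (-0.67 to -0.14). The intervals of the isoforms do not overlap with either virus, and Dync1i1 made up 14.8% of the pair's counts in the shLarp1 IP and 12% in the control IP, against 0.769% in the shLarp1 input and 0.752% in the control input. The light chain pair Dynll2 and Dynll1, which also serves as a docking hub outside dynein, showed the same kind of split. Dynll2 was called higher in the IP, at 1.47 (1.05 to 1.92) with shLarp1 and 1.93 (1.40 to 2.51) with control virus, and Dynll1 had 0.18 and -0.06 in that order, values around 0 whose sign depends on the scaling. Dynll2 held 18.6% of the pair's counts in the shLarp1 IP and 17.8% in the control IP, against 8.53% in the shLarp1 input and 5.16% in the control input.

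**Figure D2:**
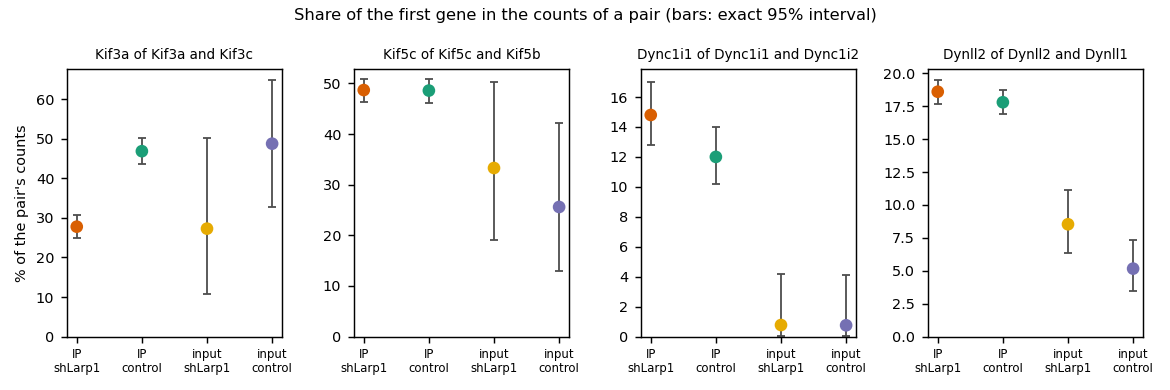
Share of the first gene in the summed counts of a pair, in percent, for 4 pairs and the 4 groups, with exact 95% intervals. Kif3a is at 27.8% of its pair in the shLarp1 IP and at 46.9% in the control IP, whereas Dync1i1 and Dynll2 separate IP from input more than virus from virus.

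Such shares need no scaling between groups. The pairs were chosen after their values had been seen. Kif5c with Kif5b split with control virus only, on 39 counts of the pair in each input. Kif5c held 48.6% of these counts in the control IP and 25.6% in the control input, and the intervals do not overlap. With shLarp1 it held 48.7% in the IP and 33.3% in input, and the intervals overlap. Other pairs showed no such split. Dync1li2 held 56.7% of its counts with Dync1li1 in the shLarp1 IP and 50.7% in the control IP. In input it held 41.7% (22.1 to 63.4) with shLarp1 and 40% (16.3 to 67.7) with control virus. The intervals of IP and input overlapped there and for Kif5a with Kif5b, Kif1a with Kif1b and Klc1 with Klc2. Dync1h1, the heavy chain that holds the dynein motor, had 663 IP and 17 input counts with shLarp1 and was called higher (1.90, 1.21 to 2.68), and had 543 and 25 with control virus and was not (1.00, 0.43 to 1.64). Both light intermediate chains, which link dynein to its cargo adaptors, were called higher under TMM scaling: Dync1li2 at 2.34 with shLarp1 and 2.58 with control virus, and Dync1li1 at 1.46 and 1.96. Dync1li1 lost the call with both viruses under upper-quartile scaling. Its call with shLarp1 was also lost whichever input column was left out, and that with control virus was lost without column 2 of the control input. The dynactin subunits all had ratios above 0 with both viruses, although those of Dctn3 and Dctn6 with control virus turn negative under upper-quartile scaling. They ran from 0.57 (Dctn6) to 1.38 (Dctn2) with shLarp1 and from 0.20 (Dctn6) to 1.58 (Dctn4) with control virus. Against the median of all genes, Dctn3, Dctn5 and Dctn6 lay below with both viruses, and Dctn2 and Dctn4 above. Dctn1 lay below it with shLarp1 and above it with control virus. Dctn2, the dynamitin subunit of the shoulder, was called with shLarp1, and Dctn4, a subunit of the pointed end, with control virus. Dctn1, the p150Glued arm that grips dynein, had 0.84 and 1.21 in the same order of viruses and was not called. Kif5a and Dctn2 overlap each other in the RefSeq annotation, so that their reads could be split between them.

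Dynlrb1, a roadblock light chain, held more counts than any other motor gene, 11488 in the shLarp1 IP and 1137 in the shLarp1 input, with ratios of -0.05 with shLarp1 and -0.24 with control virus. The Tctex-type light chains of the Dynlt1 cluster on chromosome 17 lay below the median of all genes in all 4 copies, and Dynlt1a and Dynlt1f were called lower. Dynlt1f had 474 IP and 88 input counts with shLarp1 (-0.96, -1.29 to -0.62) and 446 and 111 with control virus (-1.43, -1.73 to -1.12). Dynlt1a had -1.01 with shLarp1 and -1.06 with control virus. When libraries were scaled by total counts only, both ratios with shLarp1 were above 0, 0.37 for Dynlt1f and 0.31 for Dynlt1a, while the median of all genes moved to 2.26. These copies are nearly identical and counts can be split between them: Dynlt1f had 7, 33 and 48 counts in the shLarp1 input columns. The stretches of Dynlt1c and Dynlt1f are shown because they display how alike the DNA around their starts is, with 189 of 192 aligned bases the same (98.4%). The first 120 are printed, beginning 250 bases before the start of Dynlt1c and 142 before that of Dynlt1f. The rest of the alignment runs past the start of Dynlt1f. Transcript sequences were not compared. The bases that differ are in capitals, in build GRCm38.p6, at chr17:6601529-6601648 on the plus strand and chr17:6655962-6656081 on the minus strand.
Dynlt1c: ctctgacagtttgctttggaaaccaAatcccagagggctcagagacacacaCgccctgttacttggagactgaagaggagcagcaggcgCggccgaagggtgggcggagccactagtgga
Dynlt1f: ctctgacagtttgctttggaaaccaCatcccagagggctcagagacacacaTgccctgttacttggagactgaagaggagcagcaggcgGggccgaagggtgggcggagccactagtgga
Summed over the 4 copies, the counts were 3044 in the shLarp1 IP, 2702 in the control IP, 482 in the shLarp1 input and 470 in the control input. The summed ratio of IP over input was -0.73 (-0.87 to -0.59) with shLarp1 and -0.91 (-1.06 to -0.77) with control virus. Dynlt3, the more distant relative, had 0.53 with shLarp1 and 0.94 with control virus.

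Between the viruses in the IP, Kif20a was called higher and Kif24 lower with shLarp1, and Kif3a lay just outside the call. These 2 of 45 motor genes are 4.44%, where 5.12% of all 8766 genes tested were called, 0.719% higher and 4.4% lower. That background changes with the genes it is taken over. When 752 genes with a mean IP over input ratio below -2, among them Kif11 and Kif14, and 1185 genes with no count in either input are left out, 2.11% of 6829 genes were called, 50 higher and 94 lower, against 4.65% of 43 motor genes, again 1 higher and 1 lower. The median log2 ratio of shLarp1 over control was -0.04 for kinesin-side genes, 0.02 for dynein-dynactin genes and -0.08 for all genes. The whole interval lay within 1.5-fold for 30 of the 45, or 66.7%, against 46.2% of all genes tested. Motor genes had a median of 917 counts over both IPs and all genes 299. Of the 30, 11 were on the kinesin side and 19 on the dynein-dynactin side. Kinesin-1 was among these: Kif5a had a ratio of 0.03 (-0.12 to 0.18), Kif5b of -0.05 (-0.18 to 0.08) and Kif5c of -0.05 (-0.18 to 0.09). So were Klc1 with 0.11 (0.01 to 0.21) and Kif1a with 0.20 (0.08 to 0.33), while Klc2 had -0.41 (-0.68 to -0.14), an interval that reaches past 1.5-fold. The kinesin-8 and kinesin-13 group and the mitotic kinesins held the called genes.

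**Figure D3:**
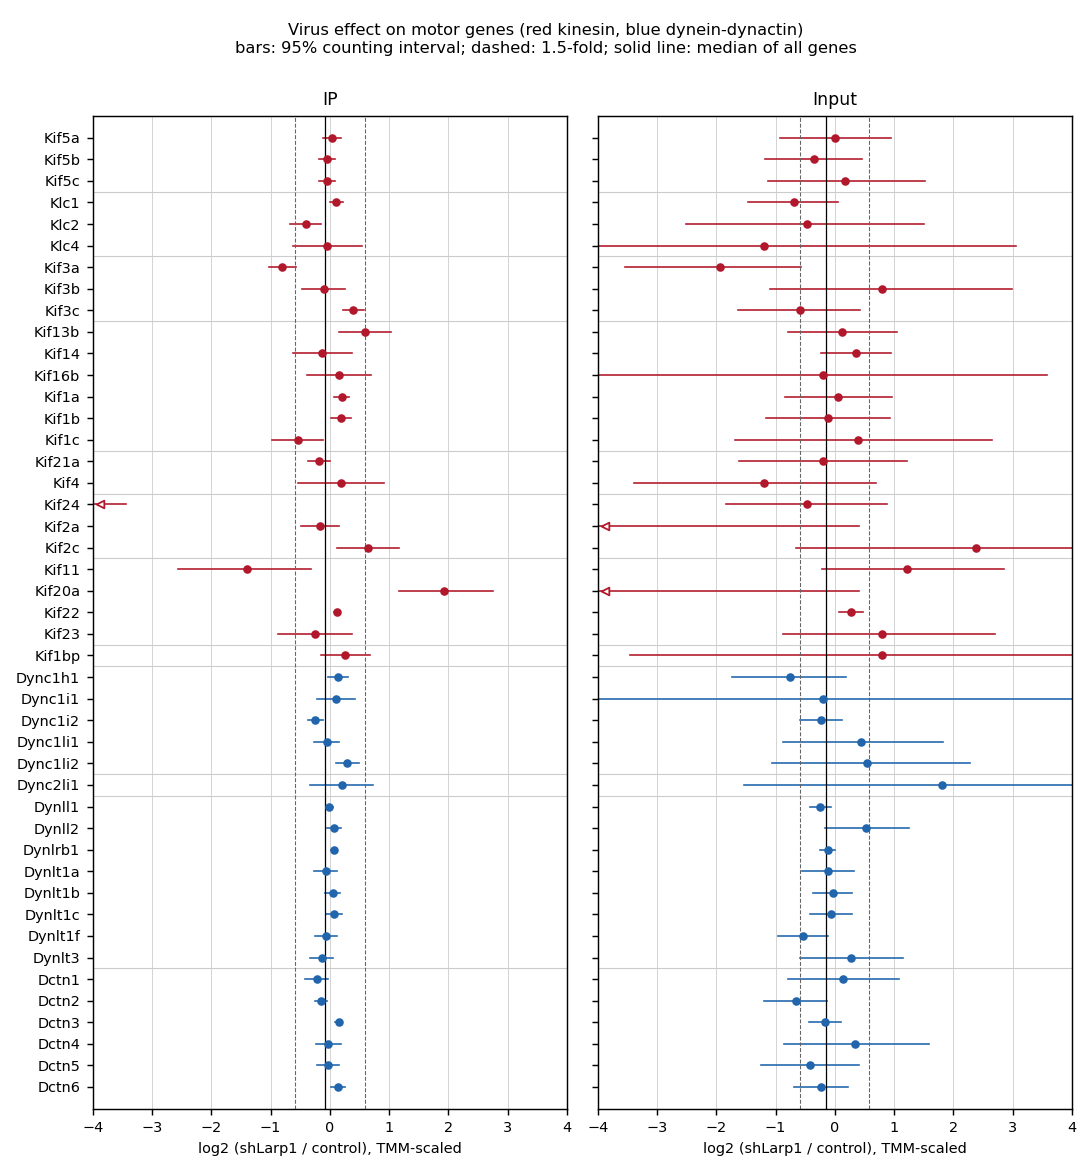
Log2 ratio of shLarp1 over control virus for the 45 motor genes, in IP (left) and input (right), ordered by role; bars are 95% counting intervals, dashed lines mark 1.5-fold, the solid line is the median of all genes, and open triangles mark a gene with 0 counts in shLarp1. In the IP 30 intervals lie within the dashed lines, against 7 in input.

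Kif20a, a kinesin of cytokinesis, was called higher, with 41, 28 and 7 counts in the shLarp1 IP columns against 0, 18 and 0 in the control IP columns (log2 1.93, 1.17 to 2.76). Its columns overlap and vary by more than sampling noise, and the call was lost without column 1 of the shLarp1 IP (1.39) or column 3 of the control IP (1.34). RefSeq places Cdc23 across Kif20a, and Cdc23 had 9, 7 and 32 counts in the shLarp1 IP against 31, 5 and 42 in the control IP. Summed, both genes had 124 counts in the shLarp1 IP and 96 in the control IP, a ratio of 0.22 (-0.18 to 0.62) that was not called. Kif24, a kinesin-13 known for holding back primary cilia, was called lower, with no count in the shLarp1 IP against 0, 27 and 11 in the control IP columns. With the shLarp1 IP set to 3 counts and the control count taken as measured, it was 14.1-fold lower. The end of its interval nearest 0 was -3.45 on the log2 scale, or -2.06 without column 2 of the control IP. One of the control IP columns was also at 0, and the 3 columns differed beyond sampling noise.

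The subunits of heterotrimeric kinesin-2, which moves endosomes and cadherin vesicles in axons and cargo in cilia, did not share a direction. Kif3a had 82, 95 and 90 counts in the shLarp1 IP columns against 133, 135 and 152 in the control IP columns. The level was 18 CPM with shLarp1 and 31.5 CPM with control virus. The ratio was -0.80 (-1.03 to -0.58), whose upper end misses the 1.5-fold limit of -0.585 by 0.005, so Kif3a was just outside the call. It was called without column 2 of the shLarp1 IP (-0.85) and without column 1 of the control IP (-0.84). Kif3c, which can take the second motor place beside Kif3a, had 213, 237 and 245 counts in the shLarp1 IP against 149, 163 and 163 in the control IP. Its ratio was 0.40 (0.23 to 0.57), which lies above 0 and within 1.5-fold. Kif3b, the usual second motor, had 36, 58 and 38 counts in the shLarp1 IP against 44, 43 and 41 in the control IP (-0.11, -0.47 to 0.26). Kifap3, the non-motor subunit that is no member by name, had 632 counts in the shLarp1 IP and 418 in the control IP (0.45, 0.26 to 0.63).

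**Figure D4:**
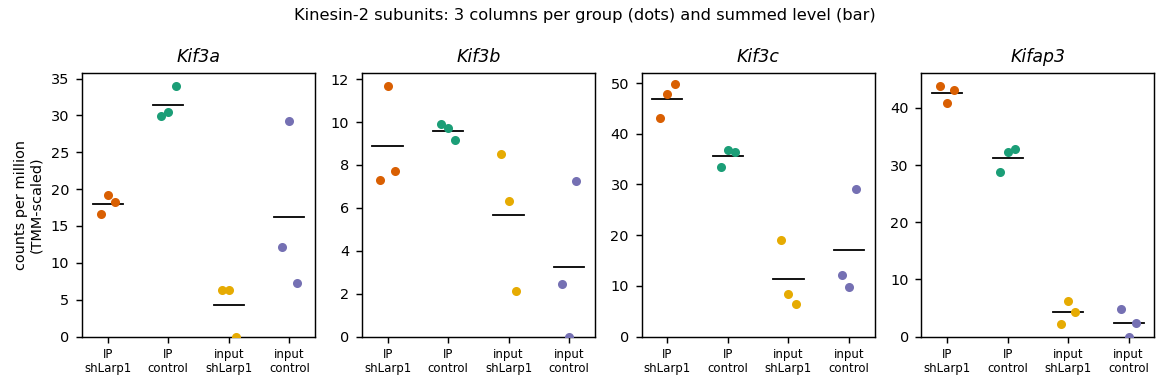
TMM-scaled CPM of Kif3a, Kif3b, Kif3c and Kifap3 in the 3 columns of each group (dots) and for the summed counts (bars). Kif3a stands at 18 CPM in the shLarp1 IP and 31.5 CPM in the control IP, while Kif3c stands at 46.9 and 35.6 CPM, with no call for either.

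As a share of the counts of Kif3a and Kif3c together, Kif3a had 27.8% (24.9 to 30.7) in the shLarp1 IP and 46.9% (43.6 to 50.3) in the control IP. In input the share was 27.3% (10.7 to 50.2) with shLarp1 and 48.8% (32.9 to 64.9) with control virus, on 22 and 41 counts, and these intervals overlap. RefSeq lists a long noncoding gene across Kif3a, and strand use in the counting is not given in the sources used here.

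The remaining kinesins with wide intervals in the IP were low in counts. Kif13b had 122 counts with shLarp1 and 73 with control virus (0.59, 0.16 to 1.03), and Kif2c, a centromere kinesin-13, had 88 and 51 (0.64, 0.12 to 1.16). Kif1c, a kinesin-3 of integrin and vesicle transport, had 80 and 105 (-0.54, -0.98 to -0.11), and Kif11, the spindle-pole motor Eg5, had 11 and 26 (-1.39, -2.56 to -0.33). Kif22 had 3001, 2938 and 2944 counts in the shLarp1 IP columns against 2477, 2468 and 2426 in the control IP columns (0.12, 0.07 to 0.16). None of these was called by the interval rule. With the columns taken as replicates, Kif22 was called higher by edgeR's quasi-likelihood test and by DESeq2. Over all genes, these tests called 608 and 384 higher in the IP.

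By the interval rule, no dynein-dynactin gene was called between the viruses in the IP. With the columns taken as replicates, edgeR's quasi-likelihood test called Dctn3, Dync1li2 and Dynlrb1 higher and Dync1i2 lower, and DESeq2 called Dctn3 higher and Dync1i2 lower. These are among 20 dynein-dynactin genes, where the same tests called 2442 and 1881 of all 8773 genes. Those calls rest on the spread between columns that differ by about sampling noise. The heavy chain Dync1h1 had a ratio of 0.14 (-0.03 to 0.30) and Dync1i2 of -0.25 (-0.37 to -0.12). Dync1li2 had 181, 172 and 176 counts in the shLarp1 IP against 114, 134 and 140 in the control IP (0.30, 0.10 to 0.49), and Dync1li1 had 404 and 378 in all (-0.06, -0.26 to 0.15). The light chains Dynll1 (-0.01), Dynll2 (0.07) and Dynlrb1 (0.06) and the dynactin subunits, from -0.23 (Dctn1) to 0.15 (Dctn3), stayed within 1.5-fold with their whole intervals. Dync2li1, a subunit of the dynein of cilia, had 70 counts with shLarp1 and 55 with control virus (0.20, -0.33 to 0.73).

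In input, no motor gene was called between the viruses, where 1.19% of all 7588 genes tested were, 0.171% higher and 1.01% lower, and depth limits what could be seen. The median interval spanned 1.93 log2 units, against 0.38 in the IP, and 7 of 45 intervals lay within 1.5-fold. Median ratios were -0.12 for kinesin-side genes, -0.12 for dynein-dynactin genes and -0.14 for all genes, and equal counts in both inputs would read as -0.20. Kif3a came nearest, with 3, 3 and 0 counts in the shLarp1 input columns against 5, 12 and 3 in the control input columns (-1.94, -3.54 to -0.57). It was called under total-count scaling (-2.17) and without column 3 of the control input (-2.04), and it stood at -0.95 without column 2 of the control input and -1.10 without column 3 of the shLarp1 input. The median of all genes in input moved in all of these settings. From -0.14 it went to -0.37 under total counts and to 0.18 without column 3 of the control input. In the last 2 settings it went to 0.17 and 0.14. Next were Dctn2 with 54 counts against 74 (-0.65, -1.19 to -0.13) and Dynlt1f with 88 against 111 (-0.53, -0.95 to -0.12). On the other side, Kif22 had 169, 135 and 177 counts in the shLarp1 input against 118, 113 and 115 in the control input (0.28, 0.07 to 0.48).

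The virus ratio in the IP differed from that in input for 3 of 45 motor genes, 1 higher and 2 lower, where 6.95% of 7581 genes were called, 1.39% higher and 5.57% lower. Outside the low-ratio genes and those with no count in either input, it was 2.46% of all genes and 4.65% of 43 motor genes. The 3 were Kif20a, Kif24 and Kif11, each on few counts. For the transport motors the difference was not called: it was 1.05 (-0.24 to 2.34) for Kif3a, 0.98 (0.04 to 1.92) for Kif3c, 0.79 (0.08 to 1.51) for Klc1 and 0.88 (-0.01 to 1.77) for Dync1h1.

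Set against dynein-dynactin within each group, kinesin-side genes held 34.78% of motor gene counts in the shLarp1 IP (34.37 to 35.19) and 34.13% in the control IP (33.69 to 34.57). In input they held 22.19% with shLarp1 (20.85 to 23.58) and 19.35% with control virus (18.04 to 20.72). The viruses overlap in the IP and, narrowly, do not in input. Without Kif22 the shares were 21.17% in both IPs, 10.33% in the shLarp1 input and 10.28% in the control input. Without the dynein-dynactin genes Dynlrb1, Dynll1 and Dctn3 as well, a choice made after seeing the data, they were 43.19% in the shLarp1 IP and 42.44% in the control IP, against 25.81% in the shLarp1 input and 25.73% in the control input. The level of the share thus depends on a few abundant genes. Summed over genes without Kif22, kinesin-side counts had a log2 ratio of 0.03 (-0.01 to 0.08) between the viruses in the IP, and dynein-dynactin counts 0.03 (0.01 to 0.06). In input these were -0.15 (-0.38 to 0.07) and -0.16 (-0.24 to -0.09).

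**Figure D5:**
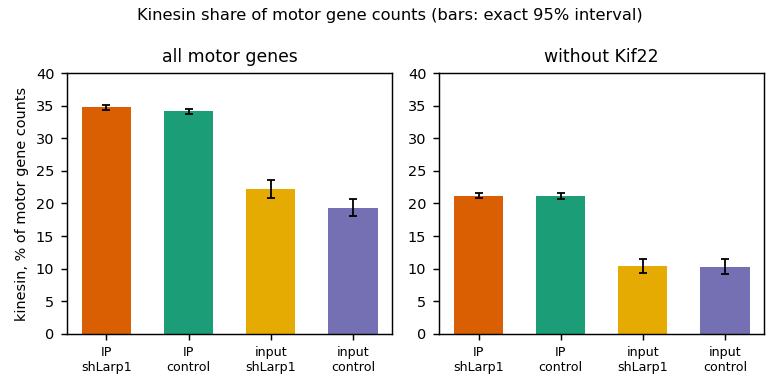
Kinesin-side counts as a percentage of all motor gene counts in the 4 groups, with all motor genes (left) and without Kif22 (right); error bars are exact 95% intervals. The share is 34.78% in the shLarp1 IP and 19.35% in the control input, and without Kif22 it is 21.17% in both IPs.

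Genes that work with the motors were examined as lists. Of 29 cargo adaptors and transport regulators that passed the filter, none was called in the IP. In input only Dennd4a, a regulator of small GTPases, was called lower, with 2, 1 and 1 counts with shLarp1 against 10, 5 and 2 with control virus (-2.29, -4.32 to -0.67), beside the 1.19% of all genes called there. The call was lost under upper-quartile factors, DESeq2 size factors and TMM based on a column of the control IP, and it was lost in 5 of the 6 cases in which 1 input column was left out. The 4 adaptors with the most counts were Aktip, a partner of Hook adaptors, with an IP ratio of -0.33, Rufy3 with -0.07, Arl8a, a GTPase that links lysosomes to kinesin, with -0.12, and Mapk8ip2, a JNK-interacting scaffold, with 0.11. The list's median between the viruses was -0.12 in the IP and 0.37 in input, where the medians of all genes were -0.08 and -0.14. In input 19 of the 29 lay above 0 and 10 below, many of them on few counts. Of 11 dynein regulators, dynactin parts and kinesin partners outside the naming rule, and of 26 microtubule-associated proteins, none was called in either the IP or input. For the interaction, 1 of these 11 was lower and 1 of the 26 higher, and of the 29 adaptors 1 was higher and 2 lower. Of all genes, 6.95% were called there. Actr10, the Arp11 subunit of dynactin, stood apart from the Dctn subunits, with 10877 counts in the shLarp1 IP, 12592 in the control IP, 26253 in the shLarp1 input and 16031 in the control input. Its ratio of IP over input was -4.66 (-4.69 to -4.63) with shLarp1 and -3.79 (-3.82 to -3.75) with control virus, against ratios above 0 for the Dctn genes, with the exception under upper-quartile scaling given above. Actr10 was singled out after its values were seen. It is 1 of the 752 genes with a mean ratio below -2. So are the adaptors Aktip (-3.66 with shLarp1, -2.96 with control virus) and Hook2 (-4.52 and -3.40).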

How the data were processed

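Per the labels' protocols, cDNA was amplified and barcoded with a nanopore PCR kit that has no molecular identifiers. The deposited values are the authors' estimated counts, whole numbers per gene with no correction for depth. Salmon, minimap2 and, as builds, mm39 and GRCm39 appear in the submitters' processing notes; not given in the sources used here are versions, annotation, filters and use of strand. Every gene had at least 13 counts over the 12 columns. Symbols were matched by identifier (13711 of 15391 genes), and promoters and overlaps came from RefSeq tables of GRCm38.p6, with 50 of 51 motor genes matched for overlaps.

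Counts were summed per group and scaled by TMM factors of edgeR 4.0.16 in R 4.3.3, fitted on the genes that passed the filter on low counts. Ratios have exact (Clopper-Pearson) 95% intervals; the interaction adds 0.5 counts and uses a normal approximation. filterByExpr (minimum count 10) left 8773 genes. A fold against 0 was set against 3 counts over the group. With 1 sample per group no p-value is given for a comparison. The method was tested on simulated data. Alternatives were other scalings, no filter, a 2-fold rule, left-out columns, and edgeR's quasi-likelihood test and DESeq2 1.42.0 with the columns as replicates.

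The motor genes and lists were chosen with earlier results of these data known. Named genes are those called in any comparison, the 4 with most counts in each role, those nearest the calling limit in IP and input and, of the adaptors, those called and the 4 with most counts; others were named after their values were seen.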

Additional observations from a re-analysis of the deposited data

Results flagged for a closer look

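The shLarp1-over-control ratio in the IP differed from that in input by more than 1.5-fold, with the whole interval, for 3 motor genes. Kif20a differed by 5.26 (0.99 to 9.54), with 76 counts in the shLarp1 IP and 18 in the control IP, against 0 in the shLarp1 input and 4 in the control input. Kif24 differed by -5.97 (-10.16 to -1.77), with 0 counts in the shLarp1 IP and 38 in the control IP, against 10 in the shLarp1 input and 12 in the control input. Kif11 differed by -2.50 (-4.15 to -0.85), with 11 counts in the shLarp1 IP and 26 in the control IP, against 16 in the shLarp1 input and 6 in the control input. With 0.5 counts added to each group, the sizes for Kif20a and Kif24 depend on that amount and are no bounds. When each of the 12 columns was left out in turn, the call of Kif20a was lost in 7, namely column 1 of the shLarp1 IP, columns 1 and 3 of the control IP, all 3 columns of the shLarp1 input and column 2 of the control input. Kif11 lost its call without column 1 of the shLarp1 IP and Kif24 without column 2 of the control IP. Summed with the overlapping Cdc23, Kif20a differed by 0.41 (-1.10 to 1.92).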

How the results depend on the processing

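Scaling moved the median of all genes between the viruses from -0.08 to as much as 0.05 in the IP (total counts) and, in input, to -0.37 (total counts) and 0.09 (TMM based on a column of the control IP), against -0.14. Over all genes, higher and lower calls were 63 and 386 in the IP, but 104 and 207 with upper-quartile factors and 105 and 205 with total counts. In input they were 13 and 77, but 181 and 35 with DESeq2 size factors, 117 and 43 with upper-quartile factors, 7 and 203 with total counts and 214 and 29 with the other TMM base. For IP over input, the median of all genes lay between 0.23 and 1.68 with control virus and between 0.43 and 2.26 with shLarp1, so directions there hold only relative to it. Higher and lower calls over all genes with control virus were 2020 and 1095, but 1293 and 1590 with upper-quartile factors and 4509 and 652 with total counts; with shLarp1 they were 2274 and 1146, but 1328 and 1489, and 6147 and 752.

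Among motor genes, total counts gave 1 call between the viruses in input (Kif3a) and 32 for IP over input with control virus. Under total counts, Dynlt1a and Dynlt1f turned to 0.31 and 0.37 for IP over input with shLarp1. A 2-fold rule left 12 calls for IP over input with control virus, 16 with shLarp1 and 1 for the interaction. Over all genes it left 1375 higher and 843 lower, 1465 and 978, and 21 and 98 in that order. With the columns as replicates, edgeR's quasi-likelihood test called 11 motor genes in the IP (Dctn3, Dync1li2, Dynlrb1, Kif1a, Kif20a, Kif22 and Kif3c higher, Dync1i2, Kif24, Kif3a and Klc2 lower), 32 for IP over input with control virus and 1 for the interaction, and DESeq2 called 6, 31 and 1 in that order, and 1 in input (Kif22). Of all 8773 genes, the quasi-likelihood test called 2442, 4861 and 974 in that order. DESeq2 called 1881, 4585 and 974 of them, and 910 in input. Same-numbered columns did not deviate together (18 correlations of -0.06 to 0.03). With the replicate block the quasi-likelihood test called 10 motor genes in the IP and 33 for IP over input with control virus. Over all 8773 genes it called 2307 and 4772 with that block. Leaving out 1 column at a time gave 1 to 4 calls in the IP, 0 to 1 in input, 15 to 20 for IP over input with control virus, 19 to 25 with shLarp1 and 1 to 3 for the interaction. Of the 19 calls for IP over input with control virus, 12 held without any 1 column (Kif5a, Kif5b, Kif5c, Klc1, Kif1a, Kif21a, Kif22, Dync1i1, Dync1li2, Dynll2, Dynlt1f, Kif14), and of the 25 with shLarp1, 15 held, Kif5a and Kif22 not among them. The kinesin share then ran from 34.64% to 34.85% in the shLarp1 IP, 33.98% to 34.29% in the control IP, 21.32% to 23.63% in the shLarp1 input and 18.94% to 19.83% in the control input; without Kif22, a choice made after seeing the data like the sums over copies, it was 21.17%, 21.17%, 10.33% and 10.28%, and without Dynlrb1, Dynll1 and Dctn3 as well, 43.19%, 42.44%, 25.81% and 25.73%. The cause of these changes was not tested. The motor genes had a median of 17 counts in the shLarp1 input and 20 in the control input.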
